A study of Mus musculus with 12 samples.

Results

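The 10 genes described here are the glucocorticoid receptor Nr3c1, 7 genes widely used as readouts of its activity (Fkbp5, Sgk1, Tsc22d3, Zbtb16, Klf9, Ddit4 and Dusp1) and the pair of enzymes that interconvert active and inactive glucocorticoid (Hsd11b1 and Hsd11b2). They were taken by name from 19938 genes on the array, and each was read by 1 probe set, the only probe set the platform table gives to that gene alone. RNA came from the jejunum of male mice aged 8 weeks, of strain A/J or C57BL/6J (B6), killed on day 7 after surgery. The operation was either ligation of the common bile duct (CBDL), which dams up bile and causes cholestasis, or a sham. In the sham the bile duct was left untouched. There were 3 arrays for each combination of strain and operation, 4 groups in all. No transgene was involved. Neither the labels nor the methods say that RNA was pooled, and the p-values below measure only the spread between these arrays. Values are log2 signals, so a difference of 1 is a doubling, and a difference was called at an adjusted p under 0.05 (limma, Benjamini-Hochberg over all 35556 probe sets).

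Glucocorticoids, chiefly corticosterone in mice, enter cells and bind the receptor, which is held in the cytoplasm by chaperones. The bound receptor moves to the nucleus and switches on genes at a palindromic DNA element, and it dampens inflammatory genes by acting on other transcription factors. In the small intestine glucocorticoids drive epithelial maturation and sodium uptake, and Hsd11b1 and Hsd11b2 set how much active hormone reaches the receptor inside a cell.

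The promoter windows below are shown because the receptor acts through the core element searched for here, and because Sgk1, Tsc22d3 and Fkbp5 rose after CBDL. RefSeq promoter windows (GRCm38.p6, 250 bases before to 50 bases after a start site) were found for 7 of the 10 genes, 14 windows in all, and Nr3c1, Zbtb16 and Hsd11b2 had none. Capitals mark the core element, AGAACA on the strand printed or TGTTCT where it lies on the opposite strand, with reading from 5′ to 3′ toward the start site. The stretch of 250 bases before the start is printed for Sgk1 at chr10:21993640-21993889 (plus strand), for Tsc22d3 at chrX:140600523-140600772 (minus strand) and for Fkbp5 at chr17:28486150-28486399 (minus strand).
Sgk1: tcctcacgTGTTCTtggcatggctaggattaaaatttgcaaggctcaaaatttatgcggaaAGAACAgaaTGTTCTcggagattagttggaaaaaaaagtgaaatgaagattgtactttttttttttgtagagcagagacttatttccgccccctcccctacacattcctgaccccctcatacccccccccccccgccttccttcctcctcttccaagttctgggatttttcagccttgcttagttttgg
Tsc22d3: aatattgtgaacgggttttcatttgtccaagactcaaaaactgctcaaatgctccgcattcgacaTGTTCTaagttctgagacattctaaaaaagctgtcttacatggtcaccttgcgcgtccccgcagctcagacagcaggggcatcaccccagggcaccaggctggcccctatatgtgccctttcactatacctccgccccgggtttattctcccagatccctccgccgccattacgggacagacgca
Fkbp5: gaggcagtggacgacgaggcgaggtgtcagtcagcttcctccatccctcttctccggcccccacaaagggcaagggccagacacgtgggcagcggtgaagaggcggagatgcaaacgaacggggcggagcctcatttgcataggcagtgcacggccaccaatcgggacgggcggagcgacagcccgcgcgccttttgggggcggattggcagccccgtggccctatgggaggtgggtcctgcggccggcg
The Sgk1 window held 3 core elements, beginning 242, 189 and 180 bases before the start site. The last pair form the full palindrome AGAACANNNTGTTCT, which 3 of 32851 promoter windows of the same length contained (0.00913%). The core element alone was in 19% of all windows, in 4 of the 14 windows of these genes, and in windows of Sgk1 and Tsc22d3 only, where other start sites of the same genes had 1 match or none. For Fkbp5 and Hsd11b1 these letters were not found in the windows searched, which says nothing about their enhancers.

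Fkbp5, Sgk1, Tsc22d3 and Zbtb16 were higher after CBDL in every array of both strains than in any sham array of the same strain. Such a separation was seen in 1.96% of all probe sets. Within single strains 5 of the 10 genes were separated this way in A/J (these 4 and Hsd11b1, against 8.04% of probe sets) and 5 in B6 (these 4 and Ddit4, against 7.89%). Averaged over both strains, these 4 of the 10 genes were called and all 4 rose, against 1.12% of all probe sets called higher. Within A/J mice 3 of 10 were called higher (Fkbp5, Sgk1 and Hsd11b1), against 0.63% of probe sets, and within B6 mice only Sgk1 was, against 0.0366%. No gene of the 10 was called lower in these 3 comparisons (0.616% of probe sets were over both strains, 0.188% in A/J and 0.0169% in B6). The median difference of the 10 genes was 0.85 in A/J, 0.64 in B6 and 0.74 over both, while the medians of all probe sets were -0.01, -0.00 and -0.01. The 10 genes and the gene lists below were chosen with earlier results of these data known. Shares and medians among them are therefore not independent of those results.

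**Figure D1:**
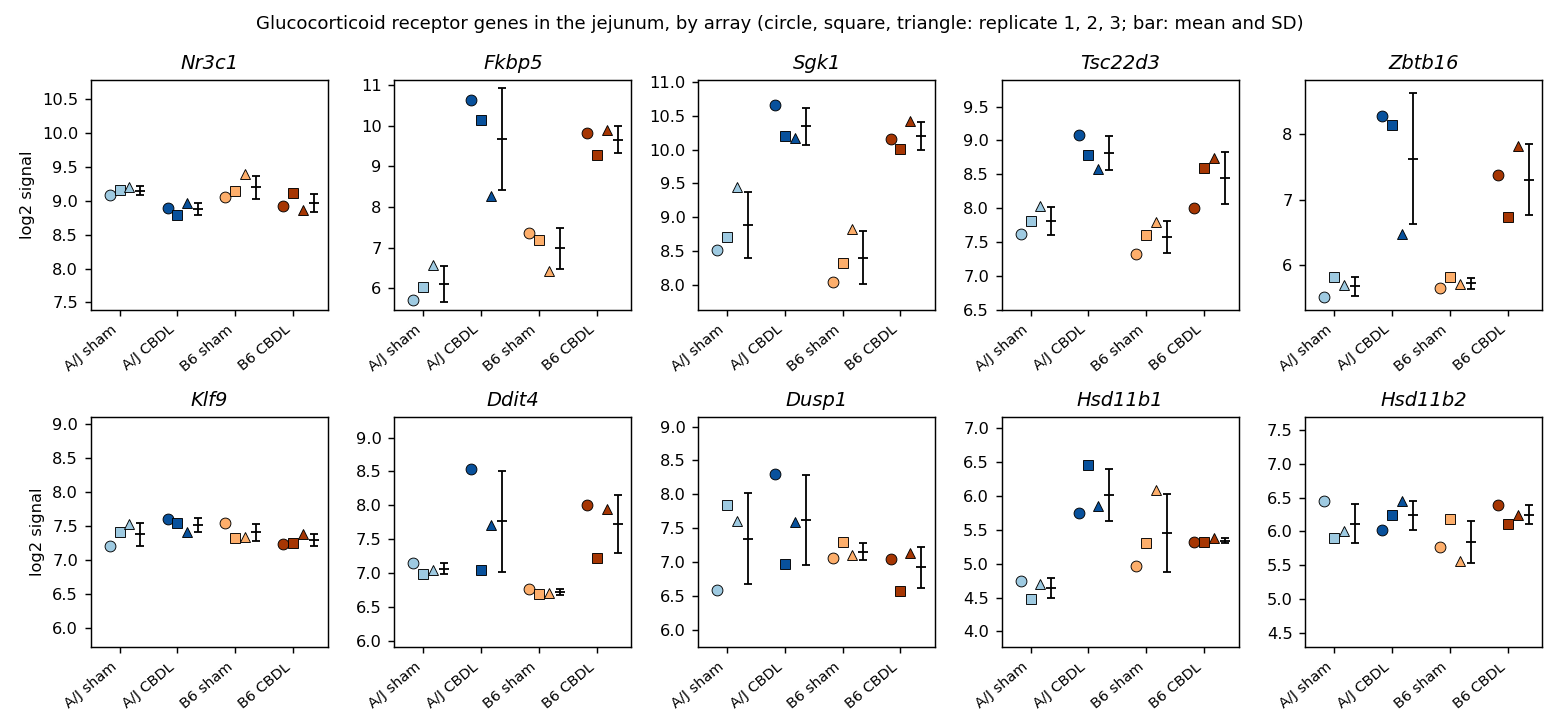
Log2 signal of each of the 10 genes (vertical axes, which differ between panels) in every array of the 4 groups; circles, squares and triangles are replicates 1, 2 and 3, and bars give the group mean and SD. The CBDL arrays of Fkbp5, Sgk1, Tsc22d3 and Zbtb16 all lie above the sham arrays of their strain, whereas Klf9 and Dusp1 overlap between sham and CBDL.

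The tissue label was compared with marker genes. The mean of 12 enterocyte markers was 12.04 to 12.22 in the 12 arrays. In B6 it was 12.17 to 12.20 in sham and 12.04 to 12.13 in CBDL, with a median difference of -0.09 and 2 of the 12 above 0. The A/J ranges overlapped, at 12.09 to 12.22 in sham and 12.04 to 12.10 in CBDL. There the median difference was -0.14, with 5 of the 12 above 0. In A/J 6 of the 12 had an unadjusted limma p under 0.05, against 14.2% of probe sets. In B6 1 of the 12 did, against 7.64%. After CBDL 1 of the 12 was called over both strains (Lct, lactase, -0.47, adjusted p = 0.030), beside 1.74% of probe sets. Hepatocyte markers moved with the groups. The mean of the 18 that were measured, of 20 listed, was 5.32 to 5.81 in A/J sham, 8.59 to 9.18 in A/J CBDL and 8.67 to 8.92 in B6 CBDL. The B6 sham arrays had means of 6.58, 7.36 and 8.65, so that B6 sham replicate 3 lay among the CBDL arrays. After CBDL, 15 of the 18 were called higher in A/J (0.63% of all probe sets were), 0 in B6 (0.0366%) and 16 over both strains (1.12%). In B6 all 18 differences were nevertheless above 0, with a median of 1.07. There 10 of the 18 had an unadjusted limma p under 0.05, against 7.64% of probe sets. Alb, serum albumin, was at 5.47, 5.31 and 8.44 in A/J sham and between 10.69 and 12.63 in all other arrays. Ahsg, the liver plasma protein fetuin-A, was between 4.17 and 5.14 in A/J sham, at 6.75, 7.71 and 9.83 in B6 sham and between 9.88 and 11.07 after CBDL. No gene of the remaining marker lists was called between CBDL and sham (0.818% of probe sets were in A/J, 0.0534% in B6 and 1.74% over both). In B6, however, the mean of 3 of these lists, like that of the enterocyte markers, was lower in every CBDL array than in any sham array. The mean of smooth muscle and fibroblast markers (11 of 11 measured) was 8.19 to 8.83 in B6 sham and at most 7.71 in B6 CBDL, with all 11 differences below 0, a median of -0.65 and 5 at an unadjusted limma p under 0.05. That of adipocyte markers (6 of 7) was 5.37 to 6.40 and 5.12 to 5.28, with all 6 below 0, a median of -0.63 and 4 at an unadjusted limma p under 0.05. That of leukocyte markers (11 of 12) was 6.28 to 6.36 and 6.03 to 6.18, with a median difference of -0.23. In A/J the sham and CBDL ranges of these 3 lists overlapped. Pancreatic acinar markers (8 of 10) had array means of 4.53 to 4.91. In bulk tissue fewer cells of a type and less RNA per cell cannot be told apart. The part of these other cell types in the results below was not tested, apart from the hepatocyte values given beside them.

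Nr3c1 encodes the receptor itself, a ligand-activated transcription factor. In A/J it stood at 9.08, 9.16 and 9.21 after sham surgery and at 8.89, 8.79 and 8.97 after CBDL. In B6 it stood at 9.06, 9.15 and 9.39 after sham surgery and at 8.92, 9.12 and 8.87 after CBDL. The A/J CBDL arrays all lay below the A/J sham arrays, as for 9.07% of probe sets, and the B6 groups overlapped. No difference was called. The log2 difference was -0.27 in A/J (SE 0.11, 95% interval -0.51 to -0.03, adjusted p = 0.300), -0.23 in B6 (SE 0.11, adjusted p = 0.671) and -0.25 over both strains (SE 0.08, interval -0.42 to -0.08, adjusted p = 0.161).

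Fkbp5, a co-chaperone that lowers the receptor's affinity for hormone and so acts as feedback on it, had the largest difference among the 10 genes. Its signal was 5.71, 6.04 and 6.58 in A/J sham and 10.63, 10.14 and 8.26 in A/J CBDL. In B6 it was 7.36, 7.18 and 6.42 in sham and 9.81, 9.27 and 9.88 in CBDL. The groups did not overlap in either strain, and A/J CBDL replicate 3 was the lowest of the 6 CBDL arrays by over 1 log2 unit. In A/J mice Fkbp5 rose by 3.57 (SE 0.51, adjusted p = 0.00987), an 11.9-fold increase with a 95% interval of 5.42 to 25.9. The B6 difference was 2.67, or 6.36-fold (interval 2.91 to 13.9), and was not called (adjusted p = 0.110). Averaged over strains the rise was 3.12, or 8.68-fold (interval 4.99 to 15.1, adjusted p = 0.00241). Without A/J CBDL replicate 3 the A/J difference was 4.27 (adjusted p = 0.00201). The A/J call was lost without A/J sham replicate 2 (adjusted p = 0.0576) or A/J CBDL replicate 2 (adjusted p = 0.0558), and without A/J CBDL replicate 3 the B6 difference was called (adjusted p = 0.0261). Among probe sets with exactly 1 gene symbol the B6 difference was called as well (adjusted p = 0.0184).

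Sgk1, a kinase that raises epithelial sodium transport, was the gene called in both strains. Its signal was 8.52, 8.71 and 9.44 in A/J sham and 10.66, 10.20 and 10.17 in A/J CBDL. It was 8.05, 8.33 and 8.83 in B6 sham and 10.16, 10.01 and 10.43 in B6 CBDL. No sham array exceeded 9.44 and no CBDL array was under 10.01. The rise was 1.45 in A/J (SE 0.26, 2.74-fold, interval 1.84 to 4.08, adjusted p = 0.0304), 1.79 in B6 (SE 0.26, 3.47-fold, interval 2.33 to 5.16, adjusted p = 0.0499) and 1.62 over both (SE 0.18, 3.08-fold, adjusted p = 0.00207). With 1 array left out the difference ran from 1.27 to 1.73 in A/J and from 1.62 to 2.01 in B6. The A/J call was lost on leaving out A/J sham replicate 1 or 2 or any of the 3 A/J CBDL arrays (highest adjusted p 0.133). The B6 call, whose adjusted p lay at the threshold, was lost in 9 of 12 such fits (highest 0.203), including fits without A/J sham replicate 2 or an A/J CBDL array, which leave the B6 difference as it was. It was kept without A/J sham replicate 1, A/J sham replicate 3 or B6 sham replicate 3.

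Tsc22d3 (also called Gilz), a mediator of the anti-inflammatory action of glucocorticoids, showed a smaller difference. In the main fit it was called over both strains only. In A/J its signal was 7.61, 7.80 and 8.03 for sham and 9.07, 8.78 and 8.57 for CBDL. In B6 it was 7.32, 7.60 and 7.79 for sham and 8.00, 8.59 and 8.74 for CBDL. The groups were separate in both strains, and B6 CBDL replicate 1 was the lowest CBDL array. Over both strains it rose by 0.93 (SE 0.15, 1.91-fold, interval 1.53 to 2.39, adjusted p = 0.0117). The difference was 0.99 in A/J (adjusted p = 0.0582) and 0.87 in B6 (adjusted p = 0.198). The A/J difference was called without A/J sham replicate 3 (adjusted p = 0.0467) and without B6 CBDL replicate 1 (adjusted p = 0.0297). It was also called without the 30% dimmest probe sets, among probe sets with exactly 1 gene symbol and with array weights. With array weights the B6 difference was called too (adjusted p = 0.0485).

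Zbtb16 (Plzf), a zinc-finger transcriptional repressor, had tight sham groups and scattered CBDL groups. Its signal was 5.51, 5.81 and 5.69 in A/J sham and 5.64, 5.81 and 5.70 in B6 sham, against 8.28, 8.14 and 6.47 in A/J CBDL and 7.37, 6.73 and 7.82 in B6 CBDL. No CBDL array fell within the sham range of either strain, and the lowest was again A/J CBDL replicate 3. Over both strains the rise was 1.77 (SE 0.29, 3.42-fold, interval 2.19 to 5.33, adjusted p = 0.0140). The difference was 1.96 in A/J (adjusted p = 0.0585) and 1.59 in B6 (adjusted p = 0.257). Without A/J CBDL replicate 3 the A/J difference was 2.54 and was called (adjusted p = 0.00488). It was also called without the 30% dimmest probe sets and among probe sets with exactly 1 gene symbol.

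Ddit4 (Redd1), an inhibitor of mTORC1, gave a less even picture. In A/J its signal was 7.15, 6.99 and 7.05 for sham and 8.54, 7.05 and 7.71 for CBDL. In B6 it was 6.77, 6.68 and 6.70 for sham and 8.00, 7.23 and 7.95 for CBDL. The B6 groups were separate and the A/J groups overlapped through A/J CBDL replicate 2. The difference over both strains was 0.86 (SE 0.22, interval 0.37 to 1.34) and was not called (adjusted p = 0.0930), but without A/J CBDL replicate 2 it was 1.03 and was called (adjusted p = 0.0298). It was also called among probe sets with exactly 1 gene symbol (adjusted p = 0.0273) and with array weights (adjusted p = 0.0412).

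Klf9, a zinc-finger factor induced directly by the receptor in many cell types, lay between 7.20 and 7.60 in all 12 arrays. Its difference over both strains was 0.01 (SE 0.08, interval -0.16 to 0.19, adjusted p = 0.959), and its sign turned with other scalings. Dusp1, a phosphatase that shuts off MAP kinases, ranged from 6.57 to 8.31, and sham and CBDL arrays overlapped in both strains. Its difference was 0.02 (SE 0.25, interval -0.53 to 0.58, adjusted p = 0.981), and its sign turned too with quantile normalization. Both intervals end below the rise of Tsc22d3 over both strains.

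Hsd11b1 and Hsd11b2 encode the enzymes at the hormone itself. Hsd11b1, which regenerates active corticosterone and is abundant in liver, was at 4.74, 4.48 and 4.70 in A/J sham and at 5.75, 6.45 and 5.85 in A/J CBDL. In B6 it was at 4.96, 5.31 and 6.09 in sham and at 5.32, 5.32 and 5.38 in CBDL. The A/J groups were apart, whereas the B6 CBDL arrays fell inside the B6 sham range. In A/J it rose by 1.38 (SE 0.26, 2.60-fold, interval 1.76 to 3.84, adjusted p = 0.0366), and the B6 difference was -0.11 (SE 0.26, interval -0.67 to 0.45, adjusted p = 0.973). With 1 array left out the A/J difference ran from 1.16 to 1.51. The call was lost in 9 of those 12 fits (highest adjusted p 0.147), including 4 that dropped a B6 array and left the difference as it was, and was kept without A/J sham replicate 3, B6 sham replicate 1 or B6 sham replicate 3. Over both strains the difference was 0.63 (adjusted p = 0.129), and without B6 sham replicate 3, the highest of the B6 arrays, it was 0.79 and was called (adjusted p = 0.0190). It was also called among probe sets with exactly 1 gene symbol (adjusted p = 0.0484) and with array weights (adjusted p = 0.0458). Hsd11b2, which inactivates corticosterone in salt-transporting epithelia, ranged from 5.57 to 6.45. The sham and CBDL groups overlapped in both strains, and its difference over both was 0.26 (SE 0.13, interval -0.03 to 0.55, adjusted p = 0.407).

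**Figure D2:**
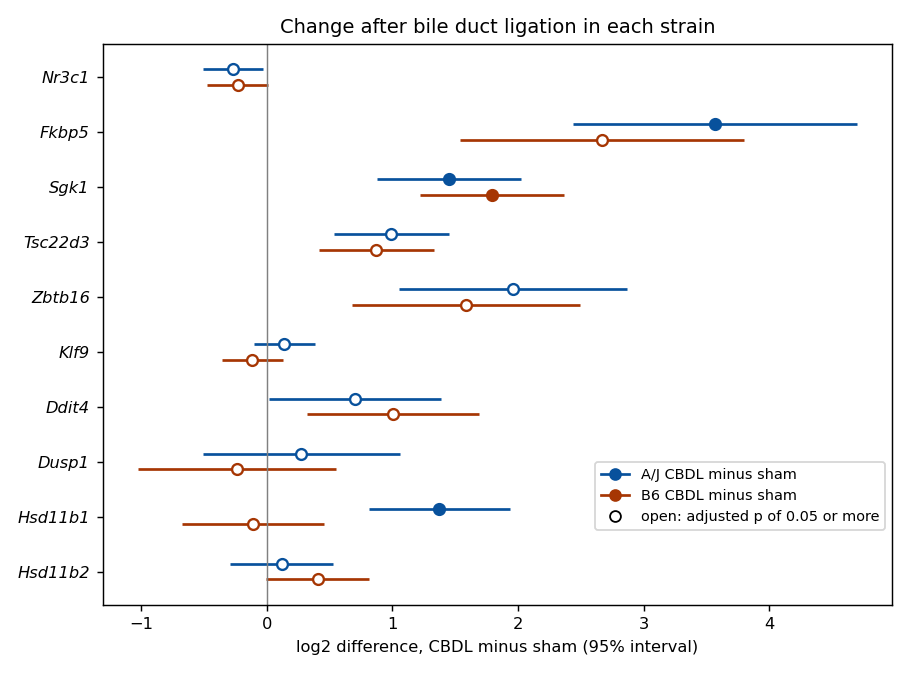
Log2 difference between CBDL and sham (horizontal axis, with 95% intervals) for the 10 genes in A/J (blue) and B6 (orange); filled points have an adjusted p under 0.05. Fkbp5 has the largest difference in each strain (3.57 and 2.67), and the strains part most at Hsd11b1 (1.38 and -0.11).

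A second calculation used no variance model. In an exact permutation test of the operation labels within each strain (two-sided, 400 arrangements), Fkbp5, Sgk1, Tsc22d3 and Zbtb16 each had p = 0.005, the smallest value this design can give. Their full separation of CBDL from sham in both strains, reported above, fixes that value, so it adds nothing to the separation. Of all probe sets 1.96% were separated in this way upward and 1.27% downward. In the same exact test p was 0.01 for Ddit4 and for Nr3c1, 0.055 for Hsd11b1, 0.1 for Hsd11b2, 0.875 for Klf9 and 0.955 for Dusp1. These p-values are not adjusted, and an exact test within 1 strain, with 3 arrays against 3, cannot reach 0.05.

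The strains were also compared directly. None of the 10 genes was called between A/J sham and B6 sham, where 1.87% of probe sets were, or between A/J CBDL and B6 CBDL, where 1.78% were. In each comparison 1 of the 10, Hsd11b1, had an unadjusted limma p under 0.05, against 15.4% and 13.7% of probe sets. Hsd11b1 differed by -0.81 in sham (A/J minus B6, SE 0.26, interval -1.37 to -0.25, adjusted p = 0.160) and by 0.68 after CBDL (interval 0.11 to 1.24, adjusted p = 0.259). For Fkbp5 the difference, A/J minus B6, was -0.88 in sham (SE 0.51, adjusted p = 0.447) and 0.02 after CBDL (interval -1.11 to 1.15).

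The test of whether the response to CBDL differed between strains called none of the 10 genes, against 0.0366% of probe sets. Again Hsd11b1 alone had an unadjusted limma p under 0.05, as did 6.88% of probe sets. Its response was larger in A/J by 1.49 (SE 0.36, interval 0.69 to 2.28, adjusted p = 0.452). For Fkbp5 the responses differed by 0.90 (interval -0.70 to 2.49, adjusted p = 0.858), for Sgk1 by -0.34 (interval -1.15 to 0.47), for Tsc22d3 by 0.12 (interval -0.53 to 0.77) and for Zbtb16 by 0.37 (interval -0.91 to 1.65). The intervals of Fkbp5, Sgk1 and Zbtb16 include a strain difference in the response of 1 log2 unit in one direction. The difference in response moved from 0.42 without A/J CBDL replicate 1 to 1.61 without A/J CBDL replicate 3 for Fkbp5, and from 0.0493 to 0.95 for Zbtb16 without the same arrays.

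Because hepatocyte transcripts moved with CBDL, the 5 genes with the clearest differences in B6 were set beside the hepatocyte marker mean in 2 arrays that stood apart, all chosen after their values were seen. In B6 sham replicate 3 the hepatocyte mean lay 92.4% of the way from the other B6 sham arrays to the B6 CBDL mean. On the same scale Fkbp5 was at -35.6%, Zbtb16 at -1.71% and Ddit4 at -2.72%, that is, not raised above the other sham arrays, while Sgk1 was at 32.0% and Tsc22d3 at 34.1%. Sham and CBDL means of the other 5 genes differed by at most 0.41 in B6, and no percentage is given for them. Among them, Hsd11b1 was highest of all B6 arrays in this one (6.09, with 4.96 and 5.31 in the other sham arrays), as was Nr3c1 (9.39), whereas Hsd11b2 was lowest (5.57) and Klf9 (7.34) and Dusp1 (7.10) lay between the other sham arrays. In A/J CBDL replicate 3 the hepatocyte mean was 99.1% of the way from A/J sham to the other A/J CBDL arrays. Fkbp5 was 50.3%, Zbtb16 31.4%, Tsc22d3 68.1%, Sgk1 83.6% and Ddit4 89.2% of the way. Among all CBDL arrays Fkbp5 and Zbtb16 were lowest in this array, which was chosen with those values known. Their low percentages therefore cannot decide whether these genes follow the hepatocyte markers. All percentages here are of log2 signals, and each set comes from the array named alone.

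With the hepatocyte mean as a covariate, none of the 10 genes was called in either strain or over both. That fit called 0 of 35556 probe sets in A/J, 4 in B6 and 0 over both. Its lack of calls is therefore not particular to these genes. The difference over both strains was then 4.04 for Fkbp5, 1.83 for Zbtb16, 0.79 for Sgk1, 0.42 for Tsc22d3 and -0.70 for Hsd11b1. In A/J, 98.2% of the covariate's variance lay between sham and CBDL and standard errors widened by a median factor of 2.88, so the covariate can barely be separated from the operation there. Over both strains that share was 89.7% and the factor 2.81. In B6 the share was 51.7% and the factor 1.44, and Sgk1 had a difference of 1.34.

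**Figure D3:**
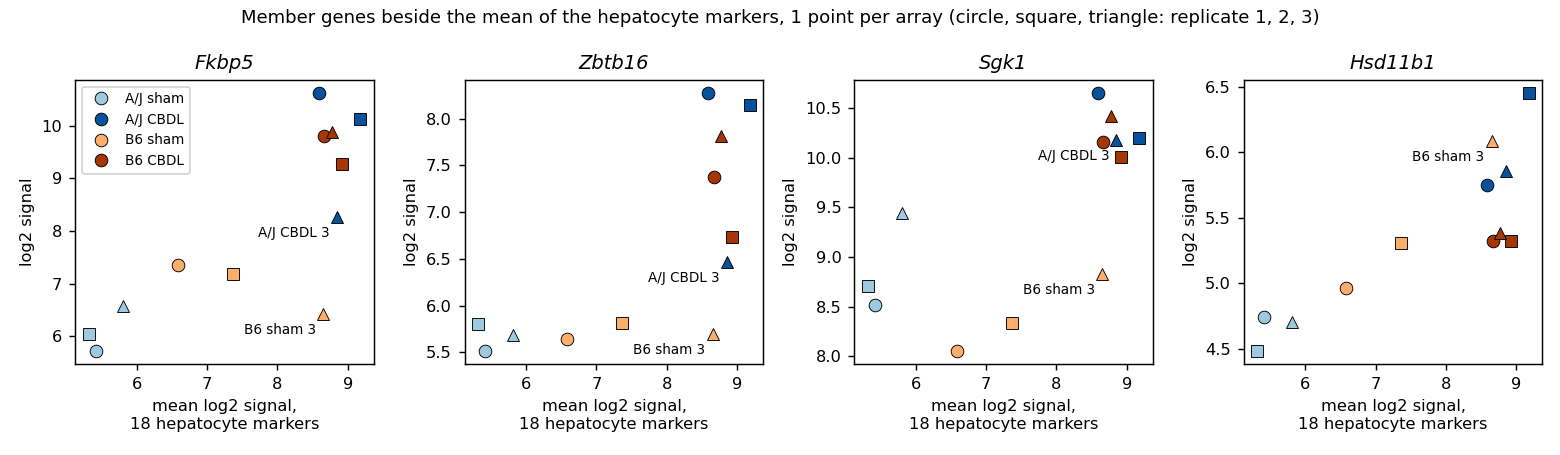
Log2 signal of 4 of the genes (vertical axes) against the mean log2 signal of 18 hepatocyte markers (horizontal axes), 1 point per array, colored by group, with replicates 1, 2 and 3 as circle, square and triangle. B6 sham replicate 3, at a hepatocyte mean of 8.65, sits with the sham arrays for Fkbp5 (6.42) and Zbtb16 (5.70) and near the A/J CBDL arrays for Hsd11b1 (6.09).

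Other genes that glucocorticoids induce were examined as a list of 25, of which 24 were measured. The list was chosen with earlier results of these data known, so its share of calls is not independent of them. Over both strains 8 of the 24 were called and all 8 rose, beside the 1.12% of all probe sets. Their median difference was 0.38, against -0.01 for all probe sets. Tat, tyrosine aminotransferase, a classical hepatic target, rose by 2.88 (SE 0.29, 7.34-fold, adjusted p = 0.00110). Mt2, a metallothionein that binds zinc, rose by 2.94 (SE 0.43, 7.68-fold, adjusted p = 0.00791), and its relative Mt1 by 1.72 (adjusted p = 0.0146). Pdk4, which restrains pyruvate oxidation, rose by 1.81 (SE 0.26, 3.51-fold, adjusted p = 0.00742), Angptl4, an inhibitor of lipoprotein lipase, by 1.63 (adjusted p = 0.00655), and Pck1, the gluconeogenic phosphoenolpyruvate carboxykinase, by 1.21 (adjusted p = 0.0232). The other genes called were Per1 (0.85, adjusted p = 0.0148), a clock gene with direct receptor control, and the transcription factor Cebpd (0.76, adjusted p = 0.0493).

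Within A/J mice 3 of the 24 were called higher, beside 0.63% of probe sets: Tat (3.64, 12.5-fold, adjusted p = 0.00392), Angptl4 (1.84, adjusted p = 0.0276) and Lpin1, a phosphatidate phosphatase (0.55, adjusted p = 0.0496). None of the 24 was called in B6 by limma, and 10 of them had an unadjusted p under 0.05, against 7.64% of probe sets. In B6 sham replicate 3 Tat lay 60.4% of the way to the B6 CBDL mean, Pdk4 41.9% and Per1 37.6%. Pck1 lay at 12.8%. Mt2 lay at -11.4%, Mt1 at -19.0%, Angptl4 at -5.70% and Cebpd at -39.5%.

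Genes acting before the receptor's targets formed a pair of lists. Of 13 chaperones and cofactors measured (16 listed), none was called after CBDL in A/J, in B6 or over both. Of all probe sets 0.818%, 0.0534% and 1.74% were, so a count of 0 does not set these genes apart. The median differences of the 13 were -0.02, 0.01 and -0.03. The lowest adjusted p among them belonged to Nr3c2, the mineralocorticoid receptor, which binds corticosterone too (-0.46 over both strains, adjusted p = 0.0528). Of 11 genes of glucocorticoid synthesis, transport and breakdown (13 listed), 2 were called higher both over both strains, beside 1.12% of probe sets, and in A/J, beside 0.63%. H6pd, which supplies the NADPH that Hsd11b1 uses, rose by 0.59 over both strains (adjusted p = 0.0227) and by 0.77 in A/J (adjusted p = 0.0492). Akr1d1, a hepatic reductase that inactivates steroids and takes part in bile acid synthesis, rose by 1.05 (adjusted p = 0.00655) and by 1.26 in A/J (adjusted p = 0.0201).

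Among 15 Sgk1 substrates and epithelial ion transport genes (16 listed), 1 was called, higher, over both strains (beside 1.12% of probe sets) and none within a strain (0.63% in A/J and 0.0366% in B6). This was Ndrg1, whose product is phosphorylated by Sgk1, which rose by 0.84 (SE 0.14, adjusted p = 0.0142), with 0.61 in A/J (adjusted p = 0.185) and 1.06 in B6 (adjusted p = 0.0977). Channel and exchanger genes downstream of Sgk1 activity, such as the epithelial sodium channel subunits, were not called.

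Because glucocorticoids also reset peripheral clocks, clock genes were listed beside the targets, and 14 of 16 were measured. Nr1d1 (Rev-erb alpha), a transcriptional repressor of the clock, was at 9.92, 10.52 and 10.16 in A/J sham and at 8.34, 8.43 and 8.67 in A/J CBDL. In B6 it was at 9.56, 9.93 and 9.96 for sham and at 9.12, 9.22 and 8.74 for CBDL. All CBDL arrays were below all sham arrays. Within both strains such a downward separation was seen in 1.27% of probe sets. It fell by 1.72 in A/J (adjusted p = 0.00298), where 0.188% of probe sets were called lower, and by 1.26 over both strains (adjusted p = 0.00131), where 0.616% were. No other clock gene was called lower in these comparisons, and none was called in B6, where 0.0534% of probe sets were. Cry1, a repressor in the negative limb of the clock, rose by 0.68 in A/J (adjusted p = 0.0316), where 0.63% of probe sets were called higher. An unadjusted limma p under 0.05 was seen for 7 of the 14 in A/J (14.2% of probe sets). The counts were 3 in B6 (7.64%) and 8 over both strains (14.1%). Median differences were 0.46, 0.10 and 0.28, with 10 of the 14 above 0 each time. The hour of tissue collection for each mouse is not given in the sources used here, and its part in these values was not tested.

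**Figure D4:**
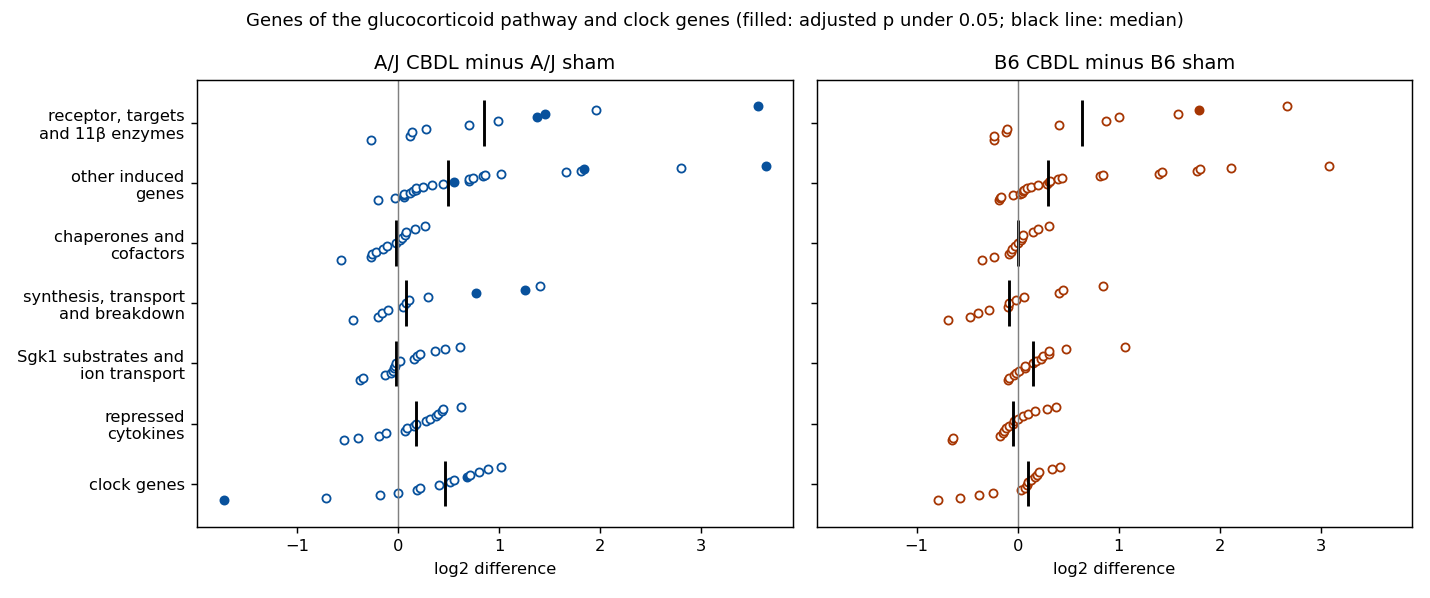
Log2 difference between CBDL and sham (horizontal axes) for the genes of 7 lists in A/J (left) and B6 (right), 1 circle per gene, filled where the adjusted p was under 0.05, with a black line at each list's median. The 10 genes (the receptor, its targets and the Hsd11b enzymes) and the other induced genes lie mostly to the right of 0, with medians of 0.85 and 0.50 in A/J and 0.64 and 0.30 in B6, while chaperones and cofactors center near 0.

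For the 5 genes called in at least 1 comparison, the genes with the most similar profile over the 12 arrays were found by the root mean square difference of mean-centered log2 signals, among 19937 other genes. Nearest to Fkbp5 were Serpina3n, an acute-phase serpin (0.701), Zbtb16 (0.800) and Cp, ceruloplasmin (0.819), beside the spread of Fkbp5 itself of 1.7. Nearest to Zbtb16 were Angptl4 (0.266), Ddah1 and Slc47a1 (0.465 each), beside its own spread of 1.01. Sgk1, with a spread of 0.882, was nearest to Acox2 (0.324), Slc47a1 (0.375) and Angptl4 (0.394), and Tsc22d3, with a spread of 0.543, to Pmvk (0.183), Per1 (0.203) and Mknk2 (0.211). Hsd11b1, with a spread of 0.568, was nearest to Igf1 (0.190), a growth factor made mainly by liver, and to Serpinf1 and Clec4g (0.257 each). Of the 5 genes only Sgk1 and Zbtb16 shared any nearest genes, Angptl4 and Slc47a1.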

How the data were processed

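Jejunal RNA was hybridized to 12 Affymetrix Mouse Gene ST arrays (the methods name another Affymetrix array type, but the probe set identifiers match the Gene ST platform table). The deposited values are log2 signals, which the labels credit to RMA (Affymetrix Expression Console, versions not given in the sources used here) and the methods to GCRMA. The values, 1.57 to 14.4 with array medians of 5.36 to 5.51, were used as deposited. The table holds no detection calls, and precision is limited by having 3 arrays a group. The mean correlation of an array with the others was 0.970 for A/J sham replicate 1 and at least 0.979 for the rest.

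Of 35556 probe sets, 21789 have 1 gene symbol in the platform table, 1621 several and 12146 none. Each gene was read by its single-symbol probe set with the highest mean. One mean per group was fitted over 12 arrays with limma 3.58.1 in R 4.3.3 (empirical Bayes), for CBDL against sham in each strain and averaged over both, for strain in sham and in CBDL, and for the interaction. P-values were adjusted by Benjamini-Hochberg over all probe sets, and the threshold was 0.05. The script was tested on simulated data. Figures were drawn with matplotlib 3.10.9.

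The 10 genes and the other lists were chosen with earlier results of these data known. Named genes were the 10, up to 3 highest and 3 lowest called in each list and comparison (or else the 2 with the lowest p), the 3 nearest by profile, and Nr1d1, Alb and Ahsg. The lists were 7 of pathway and clock genes and 6 of cell type markers. Genes outside this rule (Mt1, Pck1 and Cebpd) were named after their values were seen. Alternatives were: only the arrays compared, no dim probe sets (lowest 30%), exactly 1 gene symbol, quantile normalization, array medians subtracted, a robust prior with trend, weighted arrays, a block on replicate number, the hepatocyte marker mean as covariate, leaving out each array, a fold over 2, and exact permutation. Deviations of same-numbered arrays from their groups correlated at -0.31 to 0.36, so arrays were not paired.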

Additional observations from a re-analysis of the deposited data

How the results depend on the processing

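Over both strains, Fkbp5, Sgk1, Tsc22d3 and Zbtb16 were called whichever of the 12 arrays was left out. The count of the 10 genes called there was 4, ranged from 4 to 5 with an array left out, was 6 with exactly 1 gene symbol and with array weights (Ddit4 and Hsd11b1 added), and was 0 with the hepatocyte covariate. Calls over all 35556 probe sets moved as well: 617, 269 to 679 with an array left out, 1510 with weights and 0 with the covariate. With exactly 1 gene symbol they were 905 of 21789. Within A/J the count of 3 became 1 when just the compared arrays were fitted, 5 without the dimmest probe sets, 5 with exactly 1 gene symbol and 0 with the covariate, and ranged from 0 to 4 with an array left out. Over all probe sets the A/J calls were 291, and in the same order 197, 401 of 24889, 565 of 21789, 0, and 90 to 605. Within B6 the count of 1 became 0 when just those arrays were fitted, with array medians subtracted, with a trend and robust prior and with the covariate, and 2 with exactly 1 gene symbol or array weights. It ranged from 0 to 1 with an array left out. Over all probe sets the B6 calls were 19, and in the same order 1, 3, 16, 4, 163 of 21789, 167, and 2 to 67. With a replicate block the count was 2 in A/J (Hsd11b1, adjusted p = 0.0641), 0 in B6 (Sgk1, adjusted p = 0.0865) and 4 over both, and the arrays share no more than a number. That fit called 190 probe sets in A/J, 2 in B6 and 428 over both. Between the CBDL groups the covariate gave 1 call (Hsd11b1, 0.63, adjusted p = 0.0452) in place of 0, with 493 probe sets called in place of 634.

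Signs turned for Klf9 over both strains (-0.0184 with quantile normalization, -0.000181 with medians subtracted, -0.0419 with weights, -0.0308 to 0.0516 with an array left out), for Dusp1 over both (-0.0126 with quantile normalization, -0.16 with weights, -0.17 to 0.18 with an array left out) and in A/J (-0.0686 with weights, -0.10 to 0.60), and for Hsd11b1 in B6 (0.00392 with weights, -0.36 to 0.21). With the covariate Hsd11b1 had -0.56 in A/J, 0.35 between the shams and -0.70 over both. In the interaction, Tsc22d3 had -0.0896 with weights, -0.35 with the covariate and -0.10 to 0.27 with an array left out, and Zbtb16 had -0.0157 with weights. The cause of these shifts was not tested. Other probe sets of a gene could not be tried, since each of the 10 has 1.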

Other observations

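Cytokine, chemokine and adhesion genes that glucocorticoids repress were listed as well, and all 15 were measured. None was called after CBDL by limma in A/J, in B6 or over both strains, where 0.818%, 0.0534% and 1.74% of all probe sets were. With shares that low, a count of 0 does not set these genes apart. Their median differences were 0.18, -0.05 and 0.05. Between the shams, Ccl5, a chemokine for T cells, was lower in A/J than in B6 by -0.69 on the log2 scale (limma, adjusted p = 0.046). Rgs2, a glucocorticoid-induced regulator of G protein signaling, was also lower in A/J than in B6 shams, by -0.49 (limma, adjusted p = 0.048). Each was the only gene of its list called between the shams (1 of 15 and 1 of 24), beside 1.29% of probe sets called lower. Both adjusted p-values lay close to the threshold.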
